A study of Mus musculus with 4 samples.

Results

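The genes described here are 10 germline genes, *Dazl*, *Sycp3*, *Sycp1*, *Mael*, *Ddx4*, *Tex11*, *Taf7l*, *Stk31*, *Brdt* and *Hormad1*, out of 22225 protein-coding genes on mm9, chosen by name. Their Gata4 peaks were taken from a ChIP-seq study of Flk1(+) mesoderm cells, in which 7 of the 43143 peaks of both lists lay within 20 kb of one of these genes. The question was whether their promoters carry Gata4 peaks in cells without Dnmt3a and Dnmt3b that are missing from wild-type cells. No promoter at the 5′ end of these genes had a peak in either list, and a single gene, *Brdt*, had a DKO peak at an inner start site.

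The study compared 4 libraries, 1 per condition, all from the J1 ES cell line of 129 background. WT Flk1(+) cells (clone J1G4.2) and DKO Flk1(+) cells (clone 16G4.3, genotype Dnmt3a-/-Dnmt3b-/-) carried Gata4GR, a fusion of Gata4 with the hormone-binding part of the human glucocorticoid receptor, expressed from the CAG promoter. They were differentiated on OP9 stroma for 4.5 days, given 100 nM dexamethasone (Dex) for 3 hr, and sorted with magnetic beads for Flk1, a receptor of mesoderm progenitors. WT ES and DKO ES cells, undifferentiated and without Dex, of clones that the labels do not name, served as backgrounds. Per the study these ES cells carried Gata4GR as well. Each library was precipitated with a mixture of 3 anti-Gata4 antibodies. Each genotype of Flk1(+) cells was a single clone, so that clone and genotype cannot be told apart, and no difference between the lists has a replicate check. The values of a peak are the authors' height in the Flk1(+) library, the height in ES cells of that genotype, and their ratio, called the enrichment. A peak was listed only with a height of at least 5 and an enrichment of at least 3, so that a promoter without a peak may still have had signal under these limits. The lists hold no read totals, but the methods of the study state more mapped reads for the DKO than for the WT Flk1(+) library, and the part of this in the counts of listed peaks was not tested. The lists measure neither methylation nor expression, so the silencing of these genes in WT cells, and the identity of the sorted cells, could not be checked from them.

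Germline genes are used in the making of eggs and sperm and are kept off in other cells. Many of them have CpG-rich promoters to which Dnmt3a and Dnmt3b add methyl groups around the time the embryo implants, and loss of this methylation is known to let several of them be transcribed outside the germline. In ES cells some of them are also held by a repressor complex in which Mga with Max binds the E-box CACGTG and E2f6 binds sites such as GCGGGAA. The zinc-finger factor Gata4 acts in heart and endoderm, and its motif was searched as WGATAA, where W is either A or T.

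The start sites of the 10 genes were rich in CpGs and, in most cases, held the E-box. The window of 250 bp to either side of the 5′ end held from 25 CpGs (*Sycp3*) to 59 (*Ddx4*), with a median of 38, against a median of 24 over 22208 genes outside chromosome Y. The ratio of observed to expected CpGs ran from 0.607 (*Sycp3*) to 0.978 (*Tex11*). CACGTG was found on either strand in this window in 8 of the 10 genes, against 10.4% of all genes, and GCGGGAA in 4 of 10, against 9.51%. WGATAA was found in 1 of 10, *Hormad1*, against 23.3%. Among all genes with at least 30 CpGs in the window, a group that includes 9 of the 10, CACGTG occurred in 14.5%, GCGGGAA in 16.7% and WGATAA in 8.22%. For WGATAA the 1 of 10 was near the share of this CpG-rich group. These shares describe the reference sequence and say nothing of which factor is bound.

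The E-boxes are shown because they are the sequence feature that most of these promoters shared. Each line gives the E-box in capitals with 10 bases to either side, on the strand of the gene, from the mm9 reference, and the number is that of bases from the first base of the E-box to the annotated 5′ end.
*Sycp3*, chr10:87922258-87922283, plus strand, 46 bases before: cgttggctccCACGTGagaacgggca
*Sycp3*, chr10:87922279-87922304, plus strand, 25 bases before: gggcatggagCACGTGctaggaggcg
*Sycp1*, chr3:102740102-102740127, minus strand, 94 bases before: gagaacccggCACGTGggaagggaaa
*Mael*, chr1:168169083-168169108, minus strand, 223 bases before: ccaggcctacCACGTGacaatccccg
*Ddx4*, chr13:113442532-113442557, minus strand, 29 bases before: cgtccgcccgCACGTGcagccgttta
*Taf7l*, chrX:131011063-131011088, minus strand, 49 bases before: cctcttatacCACGTGacagaactcg
*Stk31*, chr6:49345473-49345498, plus strand, 120 bases before: gccggccaccCACGTGaccagggctg
*Brdt*, chr5:107760125-107760150, plus strand, 43 bases before: caggcacagtCACGTGgcagaccctg
*Hormad1*, chr3:95363532-95363557, plus strand, 57 bases before: aagggtgcgcCACGTGccagtgacag
*Hormad1*, chr3:95363569-95363594, plus strand, 20 bases before: gcgcactgcgCACGTGctgaccggag

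All 10 of these E-boxes lay upstream of the 5′ end, and *Sycp3* and *Hormad1* held 2 each. The 2 genes without an E-box in the window were *Dazl* and *Tex11*. *Dazl* has a second annotated start 707 bp inside the gene, and the same window around that start held 2 E-boxes, 1 GCGGGAA and 55 CpGs. *Tex11* held 2 GCGGGAA sites, 246 and 195 bases before its 5′ end, in gacgGCGGGAAgctcagcgcc (chrX:98255236-98255256, minus strand) and gcgtgcaagaGCGGGAAagaaggcgcc (chrX:98255185-98255211, minus strand), where capitals mark the site. The whole stretch from 120 bases before to 20 bases after the 5′ end of *Hormad1*, chr3:95363479-95363619 on the plus strand, is shown because it holds both elements and is the promoter of the set with a Gata motif close by, with capitals for GCGGGAA and the E-boxes:
*Hormad1*: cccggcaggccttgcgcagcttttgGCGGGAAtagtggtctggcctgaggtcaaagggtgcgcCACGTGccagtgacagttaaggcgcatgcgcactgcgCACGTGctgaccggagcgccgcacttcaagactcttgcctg
The WGATAA of *Hormad1* lay 90 bases downstream of the 5′ end, on the other strand, as tcttcattttTTATCAtcccttagtc (chr3:95363679-95363704). No peak of either list covered it.

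With a promoter peak defined as a peak within 1 kb of any annotated start site of the gene, 1 of the 10 germline genes had one in the DKO list and 0 had one in the WT list. Over all 22208 genes the shares were 37.4% in the DKO list and 24.2% in the WT list. A DKO promoter peak with no WT promoter peak was found for the same 1 of 10 genes, against 18.3% of all genes, and the reverse for 0 of 10, against 5.07%. With only the 5′ end of each gene as its start site, the DKO count was 0 of 10, against 34.6% of all genes. CpG-rich start sites carried promoter peaks more often than CpG-poor ones in both lists, and the germline genes belong with the CpG-rich. For genes with at least 30 CpGs, 64.6% had a promoter peak in the DKO list and 41.0% in the WT list, where 1 and 0 of the 9 germline genes of this class had one. For genes with 20 to 29 CpGs, the class of *Sycp3*, the shares were 46.5% and 29.0%. The counts of so few genes in 1 library per condition are given as a description.

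**Figure D1:**
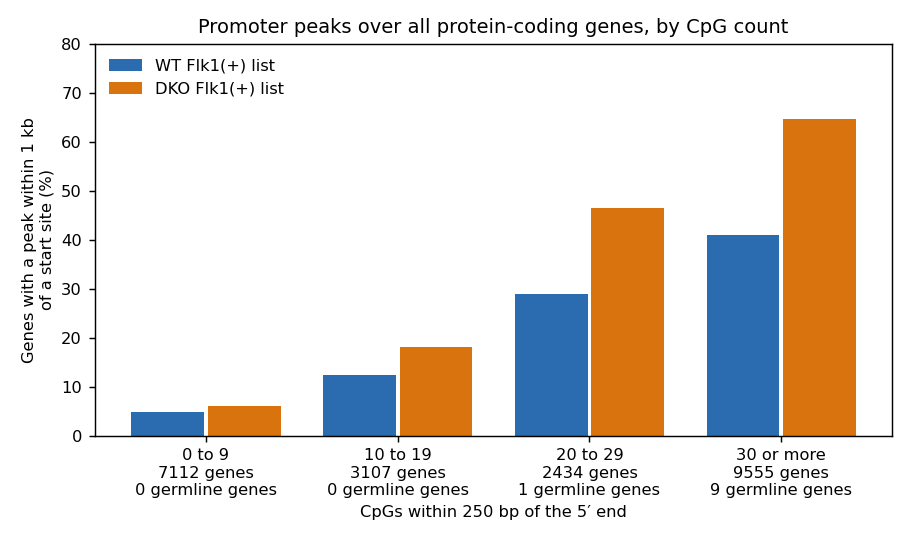
Share of all protein-coding genes outside chromosome Y with a Gata4 peak within 1 kb of a start site (vertical axis, percent), in 4 classes of CpG count within 250 bp of the 5′ end (horizontal axis), with bars for the WT (blue) and DKO (orange) Flk1(+) lists and the number of germline genes in each class below. The shares rose to 41.0% and 64.6% in the class that holds 9 of the 10 germline genes, of which 0 and 1 had such a peak.

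The genes without any peak within 20 kb of the gene in either list were 6 of the 10: *Dazl*, *Sycp3*, *Sycp1*, *Mael*, *Tex11* and *Taf7l*. A DKO peak within 20 kb of the gene body was found for 3 of 10, against 59.9% of all genes, and a WT peak for 1 of 10, against 52.5%. Within 5 kb of the gene the counts were 2 of 10 in the DKO list, against 49.1%, and 0 of 10 in the WT list, against 39.4%. The gene names that the authors attached to peaks gave these 2 genes as well, *Brdt* with 2 DKO peaks and *Hormad1* with 1. Long genes offer more room for a peak, and 5 of the 10 were at least 50 kb long. Among all genes of that length 72.0% had a DKO peak within 20 kb and 68.1% a WT peak, and among the 5 germline genes 2 and 1 had one.

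**Figure D2:**
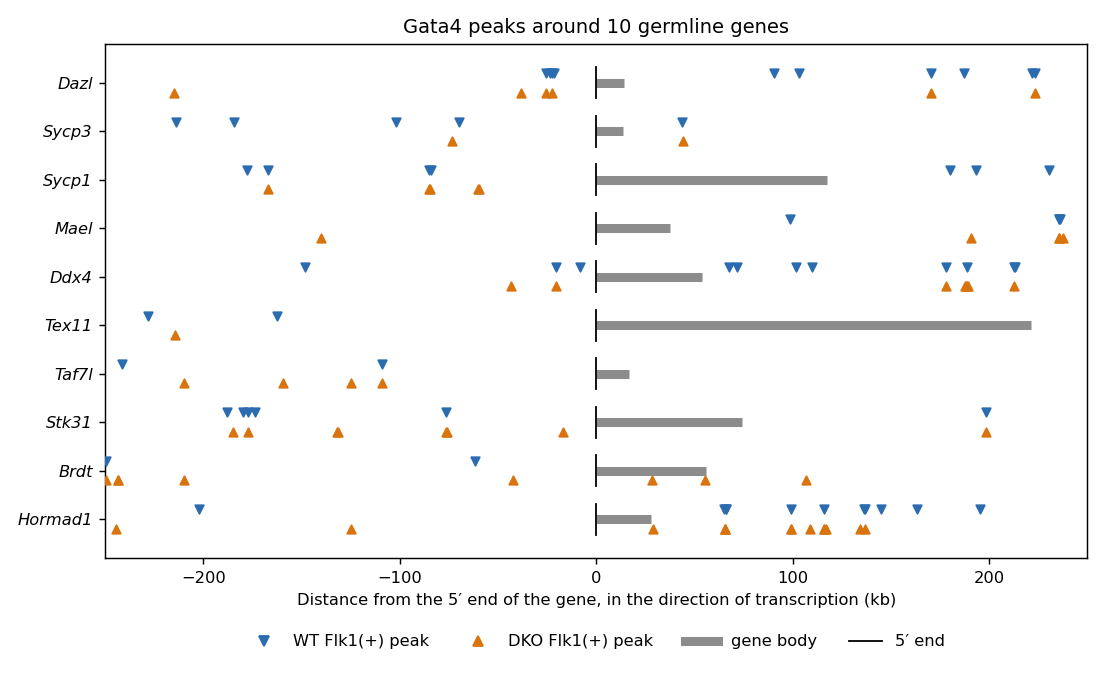
Positions of Gata4 peaks around each of the 10 germline genes, as distance in kb from the 5′ end in the direction of transcription (horizontal axis), for the WT list (blue, pointing down) and the DKO list (orange, pointing up), with the gene body in grey and its 5′ end as a black line. No symbol lies on a 5′ end, and the peaks inside a gene are the 2 DKO peaks of *Brdt*.

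*Brdt* encodes a testis bromodomain protein that reads acetylated histones, and it lies on chromosome 5 from 107760178 to 107816077 on the plus strand. Its DKO peak at 107788672 lay in coding exon 12, 28494 bp past the 5′ end and 184 bp before the annotated start of a shorter transcript, Brdt-002. It is the peak that gives *Brdt* its count among the promoters. Its height was 6.45 in DKO Flk1(+) cells and 2.15 in DKO ES cells, and the WT list had no peak within 90372 bp. The enrichment was 3.00, on the limit for a peak to be listed, and its rank was 22031 of 22733 peaks. Of all DKO peaks, 41.8% had a lower height, whereas 76.0% had a lower height in the ES library. The 250 bp to either side held 30 CpGs and no WGATAA, no E-box and no GCGGGAA. The 121 bases centred on the peak are shown to let this be seen, without capitals since none of these elements was found.
*Brdt* exon 12, chr5:107788612-107788732, plus strand: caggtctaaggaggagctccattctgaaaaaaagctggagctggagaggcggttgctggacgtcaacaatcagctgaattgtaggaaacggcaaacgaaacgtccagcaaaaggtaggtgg

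The other DKO peak of *Brdt*, at 107815647, lay in the 3′ UTR in exon 19, the last exon. Its height was 5.79 in DKO Flk1(+) cells and 1.57 in DKO ES cells, with an enrichment of 3.69 and rank 10450. No WT peak lay within 117347 bp. The window around it held 0 CpGs and 1 WGATAA, which lay outside the central 200 bp. The sequence was a tandem repeat, in which the 12-base word gacagggcagtg occurred 10 times at a median spacing of 27 bp. How uniquely reads map to such a repeat was not tested. At the 5′ end of *Brdt*, which had 30 CpGs and an E-box, the nearest DKO peak was the one in exon 12, and the nearest WT peak lay 61878 bp away.

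*Hormad1* encodes a HORMA-domain protein of the meiotic chromosome axis, and it lies on chromosome 3 from 95363599 to 95391593 on the plus strand. A DKO peak at 95392504 lay 911 bp past its 3′ end and 377 bp from the start of *Golph3l*, the next gene. Its height was 5.12 in DKO Flk1(+) cells against 1.40 in DKO ES cells, with an enrichment of 3.66 and rank 16500. Only 4.80% of DKO peaks had a lower height. The nearest WT peak lay 36256 bp away. Its window held 7 CpGs and 1 WGATAA, again outside the central 200 bp. The nearest DKO peak to the 5′ end of *Hormad1* was this one, 28905 bp downstream.

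*Stk31* encodes a Tudor-domain kinase of germ cells, and it lies on chromosome 6 from 49345603 to 49419500 on the plus strand. A DKO peak at 49328504 lay 17099 bp upstream of it, in a coding exon of *D330028D13Rik* and 469 bp from an inner annotated start of that gene. Its height was 5.37 in DKO Flk1(+) cells and 1.18 in DKO ES cells, with an enrichment of 4.56. The WT list had no peak within 59262 bp of it. The window held 12 CpGs and 3 WGATAA, none of them in the central 200 bp. The annotated transcript Stk31-002 starts 42960 bp inside the gene, where the window held 0 CpGs and 2 WGATAA, and the nearest DKO peak to that start lay 60059 bp away.

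*Ddx4* encodes the Vasa RNA helicase of germ cells, and it occupies chromosome 13, minus strand, 113388541 to 113442518. It was the gene of the set with peaks within 20 kb in the WT list, and it had none there in the DKO list. A WT peak at 113450966 lay 8448 bp upstream of its 5′ end and 18 bp from the start of *Slc38a9*, a lysosomal amino acid transporter gene. Its height was 5.50 in WT Flk1(+) cells and 1.20 in WT ES cells, with an enrichment of 4.60, and its window held 25 CpGs and no WGATAA. The nearest DKO peak, at 113463282, lay 12316 bp from this WT peak and 20764 bp from the 5′ end of *Ddx4*, just outside the 20 kb. Its height was 7.41 in DKO Flk1(+) cells, and it was within 42 bp of a WT peak with a height of 13.7 in WT Flk1(+) cells.

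The other WT peaks near *Ddx4* lay past its 3′ end, at 113374999 and 113370984, which is 13542 and 17557 bp from the gene. The latter was 114 bp from the start of *Il31ra*, an interleukin receptor gene, and the former was 4129 bp from it. Their heights were 5.09 and 5.06 in WT Flk1(+) cells, and 0.377 and 1.38 in WT ES cells. For the first of these the authors' ratio took the ES height as 1, so that its enrichment of 5.09 equals its height. These 2 were the peaks near germline genes with WGATAA in the central 200 bp. The sequence around the peak at 113374999 is shown with its 2 matches in capitals.
*Ddx4* downstream, chr13:113374939-113375059, plus strand: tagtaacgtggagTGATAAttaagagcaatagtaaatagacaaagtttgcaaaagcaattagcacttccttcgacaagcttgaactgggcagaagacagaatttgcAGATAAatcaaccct

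All 7 peaks within 20 kb of these genes were low in height. The 4 DKO peaks had heights from 5.12 to 6.45, under the median of 6.91 in the DKO list, and the 3 WT peaks from 5.06 to 5.50, under the median of 7.74 in the WT list. WGATAA occurred in 5 of the 7 windows, all but the DKO peak in exon 12 of *Brdt* and the WT peak upstream of *Ddx4*. The shares by list were 38.1% of all DKO peaks and 61.9% of all WT peaks. None of the 7 had a peak of the other list within 500 bp, since the nearest lay from 12316 to 117347 bp away. No share over all peaks of the lists is set beside this count, so it is not read as a trait of these genes. Of the 7, 4 lay within 500 bp of an annotated start of a neighboring gene, which for *D330028D13Rik* was an inner start. A further 2 lay in *Brdt* and 1 lay between genes.

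**Figure D3:**
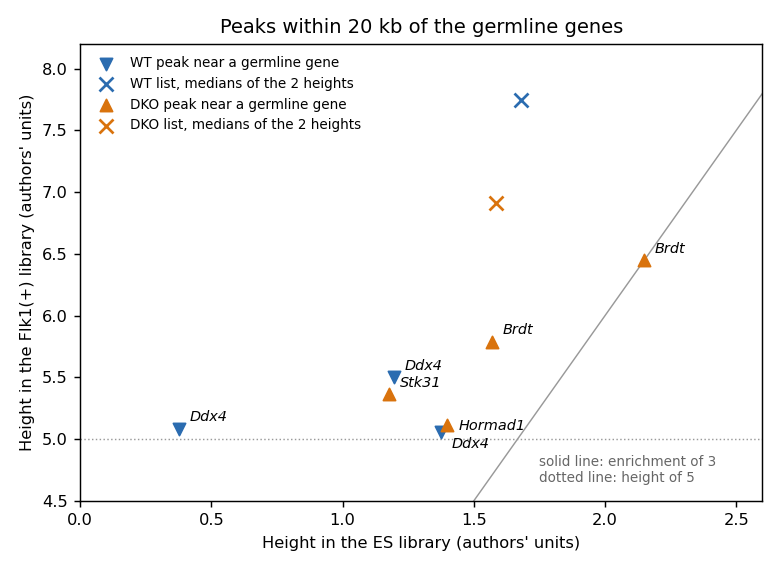
Height in the Flk1(+) library (vertical axis) against height in ES cells of that genotype (horizontal axis), both in the authors' units, for the 7 peaks within 20 kb of the germline genes, with crosses for the medians of each list. The peaks had Flk1(+) heights from 5.06 to 6.45, below the crosses at 6.91 and 7.74, and 1 *Brdt* peak lies on the line for an enrichment of 3.

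The distance from the 5′ end to the nearest peak was long for most of the 10 genes. In the DKO list it ran from 17099 bp (*Stk31*) to 214489 bp (*Tex11*), with a median of 36515 bp, against 16058 bp over all genes and 257 bp over genes with at least 30 CpGs. In the WT list it ran from 8448 bp (*Ddx4*) to 162706 bp (*Tex11*), with a median of 70761 bp, against 29691 and 9776 bp. The nearest DKO peak was closer than the nearest WT peak for 4 genes, *Sycp1*, *Stk31*, *Brdt* and *Hormad1*, and farther for the other 6. Among these 6 the DKO and WT distances were nearly equal for *Sycp3* (44125 and 43605 bp) and *Taf7l* (109337 and 109101 bp). For each of them both peaks lay at the start of the same neighboring gene. No share of all genes is set beside the count of 4, so it is not read as a trait of these genes. Within 100 kb of the 5′ ends the DKO list had 23 peaks and the WT list 20, counted gene by gene, where the whole lists held 22733 and 20410 peaks.

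**Figure D4:**
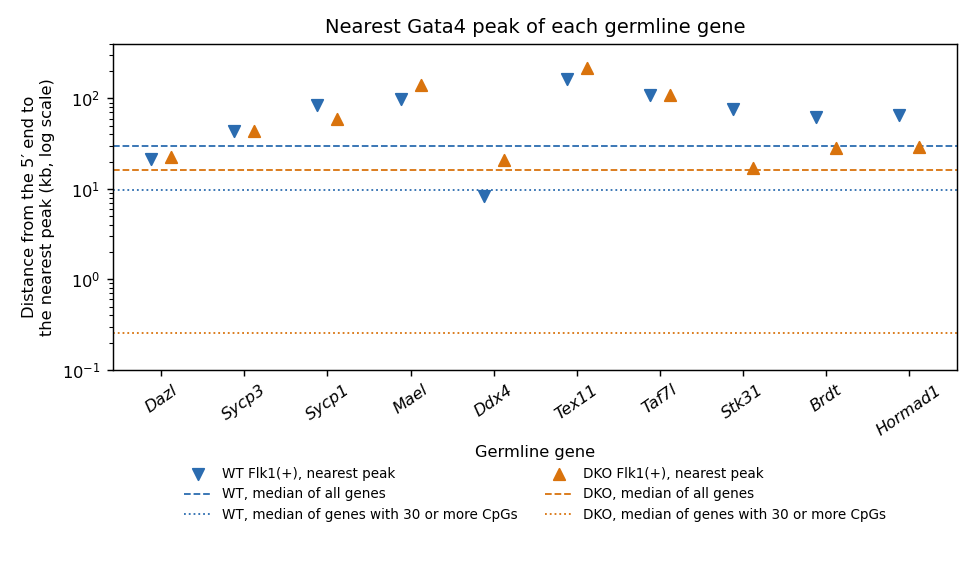
Distance in kb, on a log axis, from the 5′ end of each germline gene to the nearest Gata4 peak of the WT list (blue) and the DKO list (orange), with dashed lines for the median of all genes and dotted lines for the median of genes with at least 30 CpGs. All 10 genes lie above both DKO lines, from 17.1 to 214 kb, and 8 of 10 lie above 29.7 kb, the WT median of all genes.

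Many of these nearest peaks lay at the start sites of other genes. In the DKO list 7 of the 10 nearest peaks lay within 1 kb of an annotated start of a gene other than the germline gene, as did 7 of 10 in the WT list. Of all peaks, 11654 of 22733 in the DKO list and 5910 of 20410 in the WT list lay within 1 kb of a start. *Sycp1*, which encodes the transverse filament of the synaptonemal complex, had its nearest DKO peak 59744 bp away and 49 bp from the start of *Sike1*, with a height of 19.2 in DKO Flk1(+) cells and 5.53 in DKO ES cells. *Sycp3*, of the lateral elements of the same complex, had its nearest peaks at *Chpt1*, a phospholipid synthesis gene, 44125 bp (DKO) and 43605 bp (WT) away. The DKO peak had a height of 3.51 in DKO ES cells and an enrichment of 3.14, and the WT peak had heights of 8.46 in WT Flk1(+) cells and 2.79 in WT ES cells. For *Mael*, a gene of the piRNA pathway that silences transposons, the nearest DKO peak lay 140328 bp away, 25 bp from the start of *Tada1*, with a height of 5.78.

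The nearest DKO peak lay away from any annotated start for *Ddx4* and for *Dazl*, which encodes an RNA-binding protein of germ cells. That of *Dazl* lay 22779 bp upstream of its 5′ end at 50455703 on chromosome 17. The height of this peak was 13.6 in DKO Flk1(+) cells and 1.20 in DKO ES cells. Its enrichment was thus 11.3, and its window held 7 CpGs and 1 WGATAA. The WT list had a peak 12 bp from it, at 50455691, with a height of 34.0 in WT Flk1(+) cells and 1.96 in WT ES cells, so that this site was listed in both. A further WT peak, at 50454382, was the one nearest to the 5′ end and was low, with a height of 5.68 against 1.40 in WT ES cells. These sites lie outside the 20 kb that defines the peaks of these genes.

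*Tex11*, a meiotic recombination gene, and *Taf7l*, which encodes a germ-cell relative of a general transcription factor subunit, lie on chromosome X. The X held 1.48 peaks per Mb in the DKO list and 2.02 in the WT list, against 9.10 and 8.12 on the autosomes. A promoter peak was found for 12.8% of genes on the X in the DKO list and 12.5% in the WT list, against 38.4% and 24.7% of genes on the autosomes. The part of this in the result for these 2 genes was not tested. The nearest DKO and WT peaks to *Taf7l* lay 109337 and 109101 bp away, at the start of the ribosomal protein gene *Rpl36a*, with heights of 5.07 and 6.50. For *Tex11* they lay 214489 and 162706 bp away, at the starts of *Med12* and *Snx12*, with heights of 5.52 and 6.50. The other 8 genes lie on autosomes, and 1 of these 8, *Brdt*, had a promoter peak.

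The CpG-rich promoters around the germline genes were counted as a measure of the same stretches of chromosome. Within 100 kb of the 5′ ends of the 10 genes lay 11 other genes with at least 30 CpGs at their 5′ end, and a peak within 1 kb of that end was found for 5 of them in the DKO list and 4 in the WT list, beside 62.7% and 39.1% of all genes with as many CpGs. Among those with a DKO peak were *Chpt1* near *Sycp3*, *Sike1* near *Sycp1*, *Ccdc126* near *Stk31* and *Mcl1* near *Hormad1*. No other CpG-rich gene lay in this range of *Dazl*, *Ddx4* or *Tex11*.

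Of 60 further germline genes, in lists of meiosis, of the piRNA pathway and germ granules, and of testis and germ cell differentiation, 59 were found in the annotation. A promoter peak was found for 12 of 59 in the DKO list and 6 of 59 in the WT list, beside the 37.4% and 24.2% of all genes given above. A DKO promoter peak without a WT promoter peak was found for 7 of 59, beside 18.3%, and the reverse for 1 of 59. Among the 21 of these genes with at least 30 CpGs, 7 had a DKO and 4 a WT promoter peak, beside the 64.6% and 41.0% of all genes of that class. By list, the DKO counts were 7 of 20 for meiosis, 3 of 19 for the piRNA pathway and germ granules, and 2 of 20 for testis and germ cell differentiation.

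The 7 further genes with a promoter peak in the DKO list and none in the WT list were *Mnd1*, *Tdrkh*, *Tdrd12*, *Syce2*, *Spo11*, *Tex15* and *Zpbp*. *Mnd1*, of meiotic strand exchange, had the highest of these peaks, 26 bp from its start, with a height of 8.09 in DKO Flk1(+) cells against 1.43 in DKO ES cells. *Tdrkh*, a Tudor-domain gene of the piRNA pathway, had a peak 76 bp from its start with a height of 7.01 against 1.02. At *Tdrd12*, another Tudor-domain gene, a peak 31 bp from a start had a height of 5.96 against 1.96. *Spo11*, whose product makes the double-strand breaks of meiosis, had a peak 228 bp upstream with a height of 5.25 against 1.42. The peaks of *Syce2*, of the synaptonemal complex, and *Tex15* had heights of 5.61 and 5.01. That of *Zpbp*, with a height of 5.00, lay 73 bp from the start of *4930415F15Rik* and 387 bp from its own. WGATAA was absent from the windows of all 7 peaks, whose CpGs ran from 7 (*Syce2*) to 48 (*Zpbp*), and it was found in 15.6% of all DKO peaks within 1 kb of a start.

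Promoter peaks in both lists were found for *Msh5*, *Stag3*, *Psmc3ip*, *Tdrd7* and *Tex14*. *Msh5*, a meiotic mismatch-repair relative, had the highest of these, with a height of 46.5 in DKO Flk1(+) cells against 4.32 in DKO ES cells, and of 42.5 in WT Flk1(+) cells against 7.65 in WT ES cells. The peaks lay 63 and 49 bp upstream of its 5′ end. *Stag3*, a meiotic cohesin gene, had peaks of 12.7 in DKO and 18.5 in WT Flk1(+) cells, also 352 and 364 bp from the start of *Gpc2*. *Psmc3ip*, the partner of *Mnd1*, had 4 DKO promoter peaks, the highest at 9.47, and 1 WT peak at 7.92. The peaks of *Tdrd7*, at 7.40 in DKO and 9.20 in WT, lay at an inner start site. The WT peak of *Tex14*, at 16.1, lay 44 bp from the start of *Rad51c*, a recombination gene used in all cells, and its DKO peak, at 5.06, lay 638 bp from an inner start site. *Ddx25* had a WT peak without a DKO one, at 5.84, which lay 15 bp from the start of *Pus3*.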

How the data were processed

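The deposited files were 2 lists of Gata4 peaks, 1 per Flk1(+) library, each called with ES cells of that genotype as background, with no replicate in any condition. Per the labels and the methods, reads were mapped to mm9, with CASAVA 1.8.1 and cutadapt named in the submitters' processing notes, and peaks were called with the DNAnexus tools (kernel density bandwidth 30, height at least 5, enrichment at least 3). The aligner, the treatment of duplicate reads and the scaling of heights are not given in the sources used here. The deposited signal is the height of the authors' read profile, the deposited ratio is the Flk1(+) over the ES height with an ES height below 1 taken as 1, and the deposited −log10 of the authors' q-value was read but not compared. The bases deposited with each peak equalled mm9 around its position for all 22733 DKO and 20410 WT peaks. The genotype of a list was taken from its title and from the number of peaks stated for it in the study.

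Genes and start sites came from GENCODE vM1 (protein-coding, the longest entry of a repeated symbol). A promoter peak lay within 1 kb of any annotated start. Motifs were searched on both strands. With 1 library per condition no test was possible, and counts are set beside the share of all genes. The counting step was tested on simulated data, where all 200 planted genes were recovered. The alternatives tried were other distances, the 5′ end alone, the authors' gene names, the better-ranked 50% of each list, a higher enrichment, and another motif and window. The rule for named genes took the 10 genes with their peaks and the nearest peak of each list, neighbors with a peak within 20 kb of them, and further germline genes with a promoter peak in either list. Other neighbors were named, and the CpG classes and the 100 kb range set, after the values were seen. One neighboring gene is not reported here. The genes and lists were chosen with earlier results of these data known. Python 3.11.15, NumPy 2.4.6, pandas 2.3.3, pysam 0.24.0, samtools 1.23.1 and Matplotlib 3.10.9 were used.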

Additional observations from a re-analysis of the deposited data

How the results depend on the processing

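The count of germline genes with a promoter peak was 1 in the DKO list and rested on the *Brdt* peak in exon 12. It fell to 0 with the 5′ end as the only start site, with the better-ranked 50% of each list, and with an enrichment of at least 4. It rose to 2 with the gene names given by the authors, which mark peaks near a gene and not only at its start. These names add *Hormad1*, whose peak lay 911 bp past its 3′ end. The count in the DKO list and not in the WT list moved in the same way, to 0, 0, 0 and 2. Both stayed at 1 within 500 bp and within 5 kb of a start. The WT promoter count was 0 under all 6 alternatives. Within 20 kb, the DKO count of 3 fell to 1 with the better-ranked 50% (*Brdt*) and to 1 with the higher enrichment (*Stk31*), and the WT count of 1 fell to 0 within 5 kb and to 0 with the better-ranked 50%. The number of the 7 peaks with the Gata motif fell from 5 to 2 in the central 200 bp, where 28.9% of all DKO and 52.6% of all WT peaks held it. Both were WT peaks, and the cause was not tested. No paired analysis was possible because each condition has 1 library. A gene without a listed peak can have had signal under the calling limits, and the lists give no height at such positions.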

Other observations

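The 9555 genes with at least 30 CpGs at the 5′ end were also counted by whether they held the E-box. The 1387 of them with CACGTG within 250 bp had a DKO promoter peak in 67.5% of cases and a WT one in 42.3%, and the 8168 without it in 64.1% and 40.8%. For the 247 genes with both CACGTG and GCGGGAA the shares were 74.9% and 52.6%. The germline genes with these elements, of which *Hormad1*, *Ddx4* and *Sycp3* held both, had no peak at their 5′ end in either list. *Sycp3*, with 25 CpGs, is outside the class of at least 30. Whether these elements have a part in the lack of listed peaks was not tested. CACGTG was also found in 10 of the 21 further germline genes of the CpG-rich class. Genes are not replicates, and these shares describe 2 libraries.

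The inner start site of *Brdt* is a point for a closer look at the reads. The transcript Brdt-002 starts 28678 bp past the 5′ end of the gene, and the 250 bp to either side of its start held 37 CpGs, more than the 30 at the 5′ end, and no E-box. Whether it is used in DKO Flk1(+) cells was not tested.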
